A study of Mus musculus with 32 samples.

Results

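The change from stem cell to neuron was followed by RNA-seq in mouse cells that lack the maternal copy of a large imprinted microRNA cluster. Of the 32 libraries of the series, 6 enter the comparison: 3 of Mirg(Delta/+) embryonic stem cells (ESCs, day 0) and 3 of Mirg(Delta/+) induced neurons (iNs, day 10). All genes were measured, and the libraries were chosen by genotype and assay label alone. Both groups carry the deletion from miR-379 to miR-410 on the maternal chromosome, so what separates them is the cell state and its culture, not the genotype. The ESCs were kept in serum (10% FBS) with LIF, and the iNs were made from hybrid mouse ESCs by switching on a doxycycline-controlled Ngn2 transgene (TetO-Ngn2) in a differentiation medium. A further 6 RNA-seq libraries of Mirg(fl/+) cells, 3 ESC and 3 iN, carry the floxed but intact cluster and serve as the control (Ctl) for the same differentiation. Cell state, medium, doxycycline and day change together and cannot be told apart, and no label says that the replicates A, B and C are separate cultures, so the p-values speak for the spread among these libraries alone.

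Ngn2 (gene symbol Neurog2) is a proneural transcription factor. Forced on in pluripotent cells, it makes them leave the cell cycle and become mostly glutamatergic neurons within days, without a lasting progenitor stage. On the way the cells shut down the pluripotency network around Oct4 (Pou5f1), Sox2 and Nanog, and lose REST, the repressor that keeps neuronal genes silent in other cells. The deleted cluster lies in the Dlk1-Dio3 domain, in which the maternal chromosome makes the noncoding RNAs Meg3, Rian and Mirg and the microRNAs processed from them, and the paternal chromosome makes Dlk1, Rtl1 and Dio3.

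The microRNAs deleted from the maternal chromosome in all 6 libraries lie within chr12:109709065-109743784 (RefSeq annotation of GRCm38.p6). That stretch holds 38 hairpin genes and 71 mature microRNAs, whose levels were not measured here. The 4 with the most regions in the authors' deposited list of Ago2-bound RNA regions matched to cluster microRNAs are shown as those with most matched sites in that list; Ago2 binding in deletion cells was not analysed here. They are written 5′ to 3′ from RefSeq, with the seed (bases 2 to 8) in capitals, and no seed is shared among them. miR-495-3p lies at chr12:109718795-109718816 and had 88 regions, miR-666-3p at chr12:109717140-109717161 had 65, miR-381-3p at chr12:109726870-109726891 had 58 and miR-543-3p at chr12:109717304-109717325 had 46.
mmu-miR-495-3p: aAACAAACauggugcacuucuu
mmu-miR-666-3p: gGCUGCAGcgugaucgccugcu
mmu-miR-381-3p: uAUACAAGggcaagcucucugu
mmu-miR-543-3p: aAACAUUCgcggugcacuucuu

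The labels held on the targeted gene. Mirg, the noncoding host RNA of the cluster, had 0 counts in each of the 3 deletion ESC libraries and 2, 0 and 2 counts in the deletion iN libraries, against 672 to 932 counts in control ESCs and 455 to 685 in control iNs. The 6 deletion libraries held 18613767 to 21008497 counts each. Across genes, libraries of the same cell state correlated at 0.985 to 0.988 and libraries of different states at 0.528 to 0.534 (Pearson r of log2 CPM, a description). CPM is the count of a gene scaled to a common library size. Mitochondrial RNA made up 1.47% to 1.84% of counts in ESCs and 2.45% to 3.60% in iNs, and 7S and ribosomal-RNA-like genes 13.2% to 13.9% in ESCs and 7.07% to 8.12% in iNs; the part of these shares in the results was not tested, and leaving those genes out changed no count by more than 1.5 times. ESC replicate A and iN replicate A stood somewhat apart from the other libraries of their groups, and the counts of genes, the named genes and the list medians below were also computed without each library.

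Of 17524 genes tested, 7807 (44.6%) were higher in iNs and 7864 (44.9%) were lower, by edgeR's quasi-likelihood test with a Benjamini-Hochberg adjusted p under 0.05. The median gene stood at a log2 fold change of -0.01 and the median size of change was 1.57 on the log2 scale. Tested against a 2-fold change, 5375 genes (30.7%) were higher and 5052 (28.8%) lower. Changes of 64-fold or more were fitted for 839 genes upward and 708 downward. These shares are the background for every list below: a list with nearly equal numbers up and down does as the transcriptome did. Counts were scaled by TMM, which assumes that changes balance, so near-equal shares do not show that total RNA stayed level. In bulk RNA, fewer cells of a type and less RNA per cell cannot be told apart.

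The 15 largest rises by fitted log2 fold change included receptor subunits, adhesion proteins and other classes of gene. For genes at 0 counts in a group the fitted value depends on the prior count, a small count that the fit adds. Their rank is therefore uncertain, and only the floors below bound their rises. Ppp1r1c, a regulator of protein phosphatase 1, went from 0 in all 3 ESC libraries to 169, 185 and 169 CPM in iN replicates A, B and C, which is at least 3631-fold higher against a floor of 3 counts over the ESC group. Vwc2l, a secreted protein with a von Willebrand factor C domain, was at least 3427-fold higher by the same floor, at 159.9, 169 and 165 CPM. Gria2, the AMPA receptor subunit that sets calcium permeability, had 1 count in the ESC group and 193, 199 and 204 CPM in iNs, 12422-fold by summed counts (95% exact interval 2229 to 490691). That the groups do not overlap was a condition of this ranking, and of that of the falls, and is not a result. The kainate receptor subunit Grik1 rose 4605-fold by summed counts (95% exact interval 1575 to 22331). Also at 0 counts in all ESC libraries were Ndst4, a heparan sulfate sulfotransferase (at least 1221-fold higher), Ppargc1a, the coactivator PGC-1α of mitochondrial genes (at least 832-fold), and Golga7b (at least 824-fold). The sensory neuron homeobox factor Prrxl1 was at least 663-fold higher, the AMPA receptor auxiliary subunit Gsg1l at least 606-fold, the orphan receptor Gpr22 at least 543-fold, Olfm3 at least 497-fold, and the clustered protocadherins Pcdhb12 and Pcdhb10 at least 520.3- and 455-fold. Phf24 (5314-fold by summed counts (95% exact interval 1818 to 25769)) and the leucine-rich repeat protein Lrrn3 (5313-fold by summed counts (95% exact interval 953 to 209887)) complete the 15 by fitted value. In all, 145 genes had 0 counts in every ESC library and at least 1 CPM in every iN library, and 142 genes had the reverse.

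Pluripotency genes were among the 15 largest falls by fitted log2 fold change, beside genes of other classes. The rank of genes at 0 counts in iNs is uncertain here too, since it depends on the prior count. Acta2, smooth muscle actin, went from 120.5, 111 and 109.7 CPM in the ESC libraries to 0 counts in every iN library, at least 2072-fold lower. Genes at 0 counts in all iN libraries also included Eprn (at least 846-fold lower), Ooep of the egg's subcortical maternal complex (at least 769-fold), the nuclear receptor Nr0b1 (at least 625-fold), Dppa3, a chromatin protein of germ cells and naive ESCs (at least 537-fold), Vrtn (at least 517-fold), Pla2g1b (at least 404-fold), Kis2 (at least 309.7-fold), Ano9 (at least 298-fold) and the proto-oncogene Myb (at least 291-fold). Gja1, the gap junction protein connexin 43, fell 4686-fold by summed counts (95% exact interval 1603 to 22725). Fgf4, the growth factor that primes ESCs to differentiate, fell 3537-fold by summed counts (95% exact interval 979 to 29213). L1td1 was at 744, 681 and 665 CPM in ESCs and 0.252, 0.21 and 0.304 in iNs, a log2 fold change of -11.38 ± 0.11 (SE). The Nodal co-receptor Tdgf1 (-11.35 ± 0.16) and the chromatin factor Utf1 (-11.34 ± 0.11) fell as far. Intervals and floors on counts cover counting error only.

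**Figure D1:**
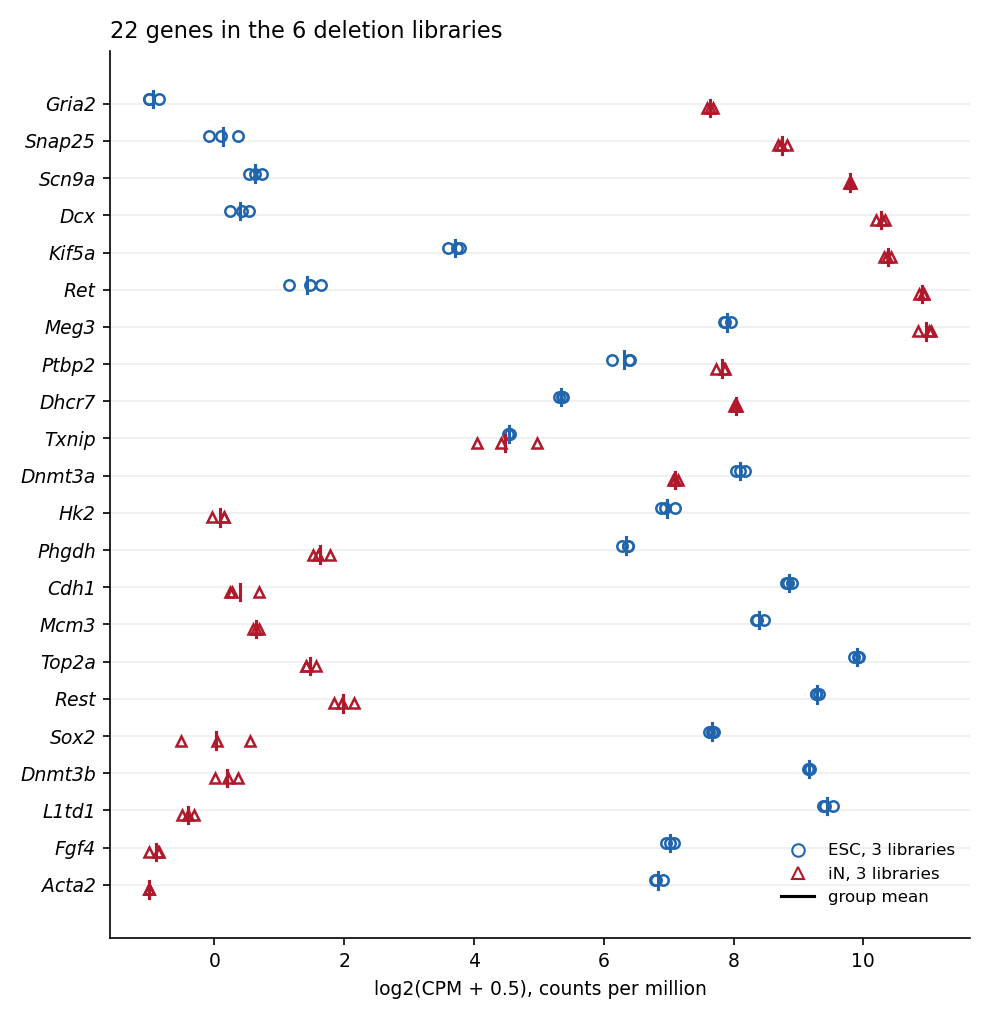
Expression of 22 named genes in each of the 6 deletion libraries, as log2(CPM + 0.5), with circles for ESC libraries, triangles for iN libraries and a bar at each group mean. The ESC and iN points overlap for Txnip. The 22 genes were picked from the named genes, and the largest rises and falls were named only if the groups did not overlap. Separation of the groups in this figure is therefore not a result.

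Pluripotency genes were nearly all lower in iNs. Of 35 core and naive pluripotency genes tested, 34 fell and 1 rose, with a median log2 fold change of -8.14 (-7.78 with the 3 members at 0 in iNs set to their bound) beside -0.01 for all genes. Their summed level went from 8156 to 8227 CPM in the ESC libraries to 305 to 323 CPM in the iN libraries. Pou5f1, the Oct4 gene, named with Nanog for its known role and outside the rule for named genes, was at 597, 563 and 540.0 CPM in ESCs and 0.604, 0.631 and 0.405 CPM in iNs. That is a log2 fold change of -10.00 ± 0.10 (edgeR adjusted p = 1.01e-15), with every iN library under 1 CPM. Nanog changed by -10.23 ± 0.15. The member that rose, the T-box factor Tbx3, did so by 0.50 ± 0.056. Of 12 primed pluripotency genes tested, 11 fell and Sall2 rose (0.73 ± 0.063). Among them Wnt8a, a Wnt ligand, fell 461-fold by summed counts (95% exact interval 82.3 to 18237), and Foxd3, a forkhead factor, fell 472-fold by summed counts (95% exact interval 161 to 2290.1). The de novo DNA methyltransferase Dnmt3b fell from 572, 582 and 569 CPM to 0.504, 0.789 and 0.658 CPM, and its cofactor Dnmt3l fell by 10.85 ± 0.11 on the log2 scale.

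Most proneural factors that could be tested rose. Neurog2 itself read 8.67, 10.3 and 10.4 CPM in ESCs and 646, 582 and 581 CPM in iNs (log2 fold change 5.94 ± 0.08). The deposited counts do not show whether these reads come from the transgene or from the endogenous gene. Of 29 proneural and neurogenic factors, 22 were tested, and 20 rose, 2 fell and none failed the test, with a median of 2.94. Neurog1, Neurod2, Neurod4, Neurod6, Atoh1 and Insm2 were among those not tested for low counts. The basic helix-loop-helix factor Nhlh1, a known target of Ngn2, went from 0.299, 0.262 and 0.369 to 145, 141 and 141 CPM, and its paralog Nhlh2 rose by 8.42 ± 0.17. The zinc finger factors Myt1 (9.48 ± 0.17) and Myt1l (8.08 ± 0.13), which hold back non-neuronal genes, rose as strongly. Falling instead were Eomes, the T-box factor of cortical intermediate progenitors that also marks early mesendoderm (-7.72 ± 0.23), and Neurog3, the pancreatic and gut family member, which fell 74.1-fold by summed counts (95% exact interval 12.9 to 2965).

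The regional identity genes that rose most were those of sensory, motor and autonomic neurons. Of 26 such factors and receptors tested, 22 rose, 2 fell and 2 did not pass, with a median of 5.71, and their summed level went from 30.6 to 31.7 CPM in ESCs to 3131 to 3279 CPM in iNs. Ret, the receptor for GDNF-family ligands, read 2.64, 1.73 and 2.26 CPM in ESCs and 1966, 1948 and 1863 CPM in iNs (log2 fold change 9.76 ± 0.097). It was low in every ESC library and high in every iN library, with no overlap. Tlx3, of sensory neurons, rose by 9.37 ± 0.17. The GATA factors Gata2 (-2.58 ± 0.34) and Gata3 (-1.74 ± 0.31) fell. Chosen after their values were seen, the 4 Hox genes of the list also rose: Hoxa5 by 8.40 ± 0.39, Hoxb5 by 6.19 ± 0.30, Hoxb8 by 6.10 ± 0.25 and Hoxc8 by 3.29 ± 0.40.

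Forebrain identity factors stayed low in sum. Of 22 listed, 14 were tested, 10 rose and 4 fell, with a median of 2.27. Their summed level was 131 to 134 CPM in ESCs and 115 to 120 CPM in iNs, in place of the gain in sum seen for the sensory, motor and autonomic list. That sum includes the fall of Otx2, so it does not show that the other members stayed level. Otx2, the head and forebrain homeobox factor that ESCs also express, read 51, 50.1 and 52.4 CPM in ESCs and 0.201, 0.158 and 0.0506 CPM in iNs (-8.48 ± 0.16). Bcl11b, of corticospinal neurons, fell by 4.96 ± 0.48. The POU factor Pou3f2 rose by 4.97 ± 0.35 and the interneuron factor Dlx1 rose 87.7-fold by summed counts (95% exact interval 29.7 to 428), and both stayed under 7 CPM in iNs. Emx1, Dlx5, Dlx6, Fezf1, Fezf2, Otx1 and Nkx2-1 were among those too low to test.

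Every gene tested for the neuronal cytoskeleton and for synaptic vesicle release rose. All 31 cytoskeleton genes were higher in iNs (median 5.05), and their summed level went from 2725 to 2794 CPM in ESCs to 45301 to 47323 CPM in iNs. Dcx, doublecortin, the microtubule protein of migrating neurons, read 0.946, 0.68 and 0.843 CPM in ESCs and 1168, 1290.4 and 1252 CPM in iNs (10.54 ± 0.095). Its relative Dclk1 rose by 6.97 ± 0.077 and the stathmin Stmn3 by 7.52 ± 0.076. The list, with its count and sum, also includes Spock1, a proteoglycan and not a cytoskeletal protein, which rose by 10.20 ± 0.093. All 38 synaptic vesicle genes were higher (median 5.78), from 357 to 374 CPM in sum to 9026 to 9262 CPM. The SNARE protein Snap25, which drives vesicle fusion, read 0.448, 0.575 and 0.79 CPM in ESCs and 411, 454 and 424 CPM in iNs (9.47 ± 0.11). Synapsin Syn2 (9.92 ± 0.13), the calcium sensor Syt2 (9.13 ± 0.10) and the vesicle GTPase Rab3c (9.93 ± 0.11) rose likewise.

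Receptor and channel genes followed. Of 35 glutamate receptor and scaffold genes tested, 33 rose, Dlg3 fell (-0.48 ± 0.081) and 1 did not pass, with a median of 4.56, while Gria1 and Grm2 were too low to test. Besides Gria2 and Grik1, the metabotropic receptor Grm3 rose 2773-fold by summed counts (95% exact interval 497 to 109552) and the adhesion protein Nlgn1, which organises glutamatergic synapses, rose 1608-fold by summed counts (95% exact interval 445 to 13283). Of 43 voltage-gated channel genes, 42 rose (median 5.53) and the T-type calcium channel Cacna1g fell (-2.24 ± 0.17). Scn9a, a sodium channel of peripheral sensory and autonomic neurons, read 0.946, 1.05 and 1.16 CPM in ESCs and 877, 889 and 895 CPM in iNs (9.72 ± 0.076). The potassium channel subunits Kcnb2 (11.24 ± 0.12) and Kcnab1 (10.98 ± 0.17) and the calcium channel subunit Cacna2d3 (8.88 ± 0.11) rose too. Of 16 GABA and glycine receptor genes, 15 rose (median 4.03), among them Gabbr2 (9.20 ± 0.22) and Gabrb2 (8.22 ± 0.19). Gabra4 fell (-0.65 ± 0.22), with an adjusted p of 0.0155 by edgeR that did not hold without ESC replicate C (log2 fold change -0.51) or iN replicate C (-0.56).

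Of 21 transmitter genes listed, 12 were tested, 10 rose and 2 fell (median 3.77). The vesicular glutamate transporter Slc17a6 read 0.349, 0.209 and 0.421 CPM in ESCs and 173, 168 and 181 CPM in iNs (9.03 ± 0.11), and Slc17a7 rose by 4.64 ± 0.097. Ache, acetylcholinesterase, which breaks down acetylcholine, rose 3841-fold by summed counts (95% exact interval 1314 to 18629.7), and the vesicular monoamine transporter Slc18a2 rose 159.8-fold by summed counts (95% exact interval 54.3 to 778). The GABA-synthesising enzyme Gad1 fell from 0.996, 1.26 and 0.895 CPM to 0.403, 0.421 and 0.202 CPM, and Gad2 and the GABA vesicle transporter Slc32a1 were too low to test, as were Th, Dbh and Tph2, which make catecholamines and serotonin. Ddc, which acts in both of the last pathways, fell by 4.17 ± 0.15. Of 17 neuropeptide and granin genes tested, 15 rose and 2 fell, with a median of 6.24 (5.52 with the 3 members at 0 in a group set to their bound). The peptide neurotensin, Nts, read 0.0996, 0.105 and 0.211 CPM in ESCs and 178, 179 and 184 CPM in iNs (10.29 ± 0.12), and the granin-family Scg3 rose by 10.12 ± 0.11. Thyrotropin-releasing hormone, Trh, fell 1317-fold by summed counts (95% exact interval 364 to 10878), and prodynorphin, Pdyn, was at 0 counts in iNs and at least 23.1-fold lower.

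Most axon guidance genes rose. Of 49 guidance and adhesion genes tested, 41 rose, 7 fell and 1 did not pass (median 3.20). The adhesion molecules Cntn1 (0.548, 0.418 and 0.79 CPM in ESCs, 963, 928 and 924 CPM in iNs, 10.63 ± 0.1) and Ncam2 (11.26 ± 0.12) rose most, with the receptors Epha5 (9.21 ± 0.12) and Plxna4 (8.40 ± 0.11). The secreted cue netrin-1, Ntn1, fell from 90.6, 92.2 and 89.8 CPM to 0.655, 0.579 and 0.557 CPM, while its receptor Dcc, named after its value was seen, rose by 7.41 ± 0.32. The ephrin receptor Epha4 fell by 4.55 ± 0.079. Notch pathway genes divided evenly, 11 higher and 10 lower of 22 (median 0.11): the receptors Notch2 (-4.70 ± 0.075) and Notch3 (-6.36 ± 0.11) and the glycosyltransferase Lfng (-5.91 ± 0.28) fell, and the neuronal ligand Dner rose by 5.89 ± 0.074. Of 23 neuronal RNA-binding proteins, 20 rose (median 3.12), including Celf6 (8.69 ± 0.25), Rbfox1 (8.32 ± 0.21), Rbfox3, the NeuN antigen (7.63 ± 0.13), and Celf3 (759-fold by summed counts (95% exact interval 209.6 to 6271)). Msi2, a progenitor RNA-binding protein, fell by 0.77 ± 0.052.

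Some promoters of these genes held the E-box CAGATG, a form of the site that proneural factors bind with their partners. The search covered both strands of the 300 bases from 250 before to 50 after each annotated start (RefSeq, GRCm38.p6). The motif was found in 5 of 16 proneural genes with a promoter in the table (31.3%) and 5 of 20 neuronal cytoskeleton genes (25%), beside 13.6% of the 11546 tested genes with a promoter, 15.9% of genes higher beyond 2-fold and 12.9% of genes lower beyond 2-fold. Within 50 bases of the start it was in 0 of the 16 and 0 of the 20, against 3.87% of all. The promoters of Nhlh1 (chr1:172057547-172057846 on the minus strand) and Stmn3 (chr2:181314451-181314750 on the minus strand) are shown as examples, 1 from each list, with the motif, or its reverse complement, in capitals. The match is a description of the letters and not a measured site.
Nhlh1: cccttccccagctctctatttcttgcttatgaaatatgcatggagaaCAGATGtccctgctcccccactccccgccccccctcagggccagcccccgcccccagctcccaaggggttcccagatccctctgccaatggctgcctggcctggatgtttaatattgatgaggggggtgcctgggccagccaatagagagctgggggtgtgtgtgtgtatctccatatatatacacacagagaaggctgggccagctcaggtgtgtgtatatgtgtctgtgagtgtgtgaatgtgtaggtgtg
Stmn3: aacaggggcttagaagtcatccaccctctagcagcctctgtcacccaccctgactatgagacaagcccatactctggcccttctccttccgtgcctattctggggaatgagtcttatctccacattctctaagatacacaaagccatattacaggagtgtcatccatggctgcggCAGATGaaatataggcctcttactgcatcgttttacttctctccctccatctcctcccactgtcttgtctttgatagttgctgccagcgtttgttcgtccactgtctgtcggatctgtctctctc

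**Figure D2:**
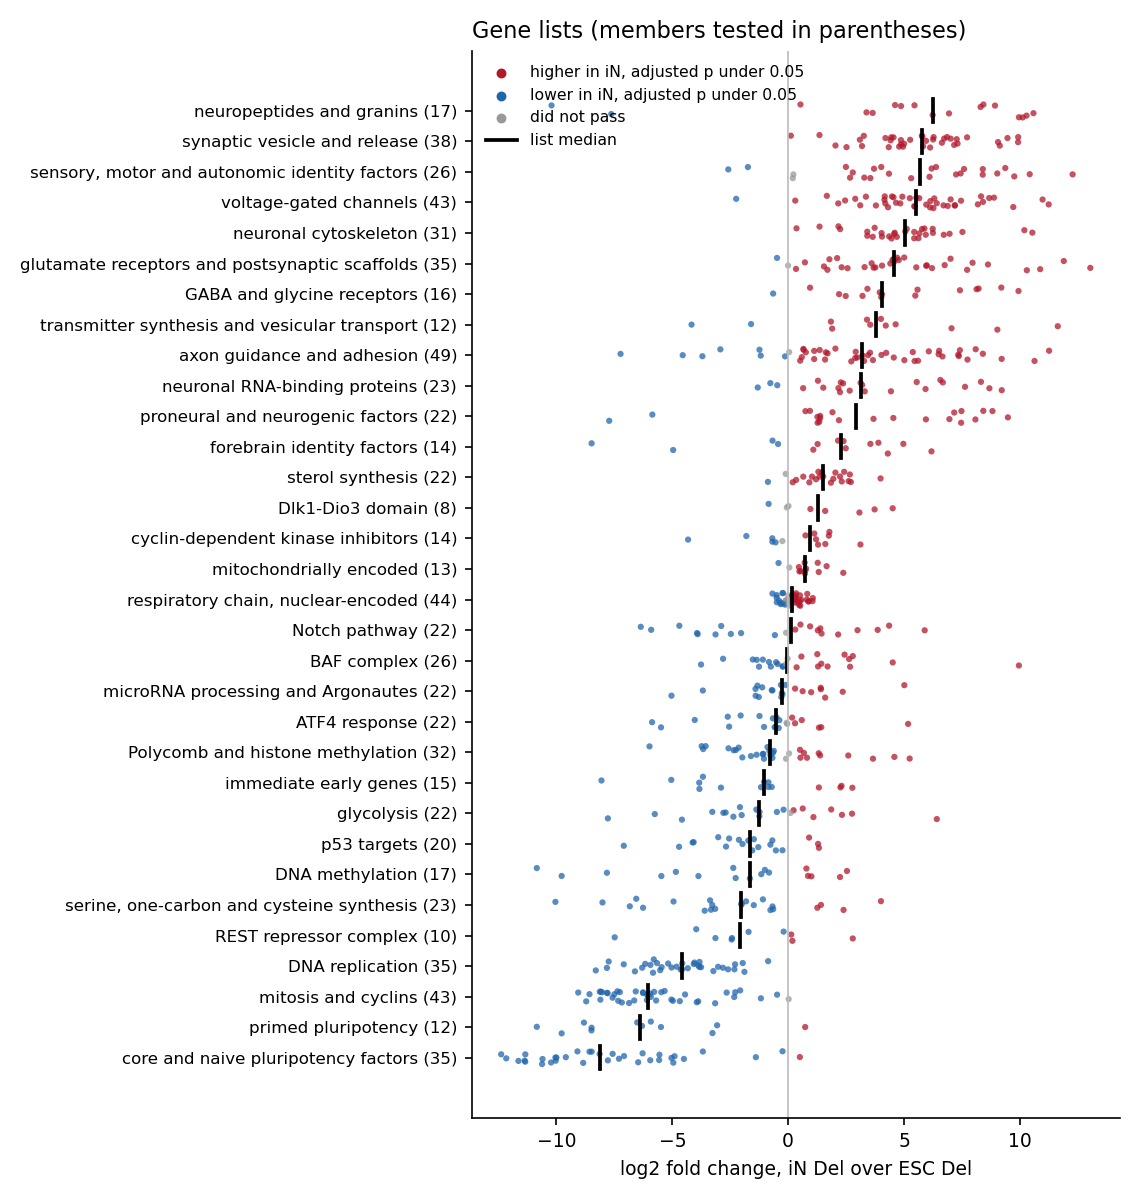
Log2 fold change (iN Del over ESC Del) of every tested member of 32 gene lists, 1 point a gene, red where higher and blue where lower at an adjusted p under 0.05 and grey where not passed, with a black bar at the list median. Lists of DNA replication, mitosis and pluripotency genes lie left of 0 and those of the synapse, channels and neuronal cytoskeleton lie right of it.

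Nearly all replication and mitosis genes fell. All 35 DNA replication genes fell (median -4.58), from 4509 to 4601 CPM in sum in ESCs to 228 to 241 CPM in iNs. The helicase subunit Mcm3 read 355, 329.8 and 324 CPM in ESCs and 1.06, 1.11 and 1.01 CPM in iNs (-8.30 ± 0.084). Uhrf1, which couples replication to DNA methylation, fell (-7.82 ± 0.11), as did the origin protein Orc1 (-7.75 ± 0.11) and the loader Cdc6 (-7.10 ± 0.12). Of 43 mitosis and cyclin genes, 42 fell and E2f2 did not pass (median -6.07), and their sum went from 6699 to 6864 CPM to 244 to 252 CPM. Top2a, the topoisomerase that untangles chromosomes, read 927, 965 and 977 CPM in ESCs and 2.47, 2.16 and 2.18 CPM in iNs (-8.72 ± 0.073). The mitotic kinase Cdk1 (-8.13 ± 0.14), its partner Ccnb1 (-8.58 ± 0.10) and the checkpoint kinase Bub1b (-9.06 ± 0.11) fell as far, each to about 1 CPM or less in every iN library. The brakes moved less: of 14 cyclin-dependent kinase inhibitors and pocket proteins, 8 rose, 5 fell and 1 did not pass (median 0.94). Cdkn2d, the p19 inhibitor that keeps neurons out of the cycle, rose from 6.82, 5.13 and 6.11 to 54.3, 51.8 and 51.1 CPM and Cdkn2a rose by 1.78 ± 0.17, while the pocket protein Rbl1 (-4.32 ± 0.21) and the phosphatase Cdkn3 (-1.81 ± 0.22) fell.

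Many promoters of mitotic genes held the same element. The CHR element TTTGAA, through which the DREAM complex represses late cell cycle genes in resting cells, was found on either strand in 20 of 33 mitosis genes with a promoter (60.6%), beside 14.1% of all tested genes with one. Within 50 bases of the start it was in 18 of the 33 (54.5%) against 3.79% of all. The E2F site GGCGGGAA was found in 6 of 28 DNA replication genes (21.4%) beside 4.64% of all, and within 50 bases in 5 (17.9%) against 1.58%. The promoters of Cdk1 (chr10:69352863-69353162 on the minus strand) and Top2a (chr11:99024140-99024439 on the minus strand) are shown for the CHR element, and those of Mcm3 (chr1:20820263-20820562 on the minus strand) and Uhrf1 (chr17:56303087-56303386 on the plus strand) for the E2F site, each 5′ to 3′ with matches in capitals.
Cdk1: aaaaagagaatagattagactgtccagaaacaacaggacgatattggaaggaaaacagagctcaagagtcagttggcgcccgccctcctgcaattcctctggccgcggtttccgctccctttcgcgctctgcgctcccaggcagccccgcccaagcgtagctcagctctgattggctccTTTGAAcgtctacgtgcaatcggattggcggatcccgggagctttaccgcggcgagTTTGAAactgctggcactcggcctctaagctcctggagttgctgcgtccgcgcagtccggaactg
Top2a: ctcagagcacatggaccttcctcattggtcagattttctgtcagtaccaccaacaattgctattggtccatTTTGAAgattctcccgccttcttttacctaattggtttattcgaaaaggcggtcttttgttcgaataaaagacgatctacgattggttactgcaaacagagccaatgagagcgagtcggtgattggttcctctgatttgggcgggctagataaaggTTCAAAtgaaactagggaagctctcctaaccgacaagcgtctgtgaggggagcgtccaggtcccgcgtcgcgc
Mcm3: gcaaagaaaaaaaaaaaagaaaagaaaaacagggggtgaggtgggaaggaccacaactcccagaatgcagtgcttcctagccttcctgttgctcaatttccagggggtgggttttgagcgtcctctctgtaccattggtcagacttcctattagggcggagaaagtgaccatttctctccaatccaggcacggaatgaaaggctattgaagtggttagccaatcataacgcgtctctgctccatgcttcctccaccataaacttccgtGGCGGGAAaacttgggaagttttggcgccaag
Uhrf1: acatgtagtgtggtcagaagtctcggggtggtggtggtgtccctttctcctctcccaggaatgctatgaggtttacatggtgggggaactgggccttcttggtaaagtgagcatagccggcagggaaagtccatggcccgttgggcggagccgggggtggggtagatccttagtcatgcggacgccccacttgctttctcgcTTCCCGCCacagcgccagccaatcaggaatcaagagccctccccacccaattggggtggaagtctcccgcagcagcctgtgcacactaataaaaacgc

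Rest, the repressor of neuronal genes in other cells, read 619, 619.6 and 636 CPM in ESCs and 3.93, 3.1 and 3.39 CPM in iNs (-7.49 ± 0.074, edgeR adjusted p = 1.01e-15). Of 10 genes of the REST complex, 7 fell and 3 rose: the deacetylase Hdac1 (-3.14 ± 0.075) and the phosphatase Ctdsp1 (-3.97 ± 0.11) fell, and the corepressor Rcor3 rose (2.79 ± 0.068). Of 17 DNA methylation genes, 12 fell and 5 rose (median -1.65), and Tet3 (2.24 ± 0.054) was among those that rose. Of 32 Polycomb and histone methylation genes, 20 fell, 10 rose and 2 did not pass (median -0.79). The Polycomb proteins Eed (-3.73 ± 0.062) and Phf19 (-5.98 ± 0.19) fell, and the chromobox protein Cbx8 (4.58 ± 0.14) rose. Of 26 BAF chromatin remodelling genes, 12 rose, 12 fell and 2 did not pass, which is near the share of all genes tested.

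Levels were compared within 30 pairs of related genes, each with a broadly expressed and a neuronal or postmitotic member. TPM is a share of transcripts corrected for gene length, so the members of a pair can be compared. The share of the pair held by the neuronal member was higher in iNs for all 30 pairs, over 50% in 0 pairs in ESCs and in 18 in iNs. In 23 pairs the broad member fell and the neuronal member rose, in 4 both rose and in 3 both fell. The BAF subunit Actl6b held 0.012% ± 0.021 (SD, n = 3) of the Actl6a and Actl6b total in ESCs and 78.0% ± 0.45 in iNs. For the splicing repressors Ptbp1 and Ptbp2, whose exchange accompanies neurogenesis, the Ptbp2 share went from 11.4% ± 0.20 to 92.2% ± 0.40. In the cadherin pair Cdh1 and Cdh2, the Cdh2 share went from 5.94% ± 0.50 to 99.7% ± 0.078. Snap25 replaced Snap23, from 0.952% ± 0.38 to 98.2% ± 0.26 of the pair. The Dnmt3a share of Dnmt3a and Dnmt3b went from 32.5% ± 0.83 to 97.7% ± 0.19 although Dnmt3a itself fell (-1.01 ± 0.049), since Dnmt3b fell further. The exchange was small for the elongation factor pair, in which Eef1a2 reached 3.57% ± 0.23, for Aldoc at 1.70% ± 0.082 of the aldolase pair, and for Ago4 at 5.15% ± 0.65 beside Ago2.

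**Figure D3:**
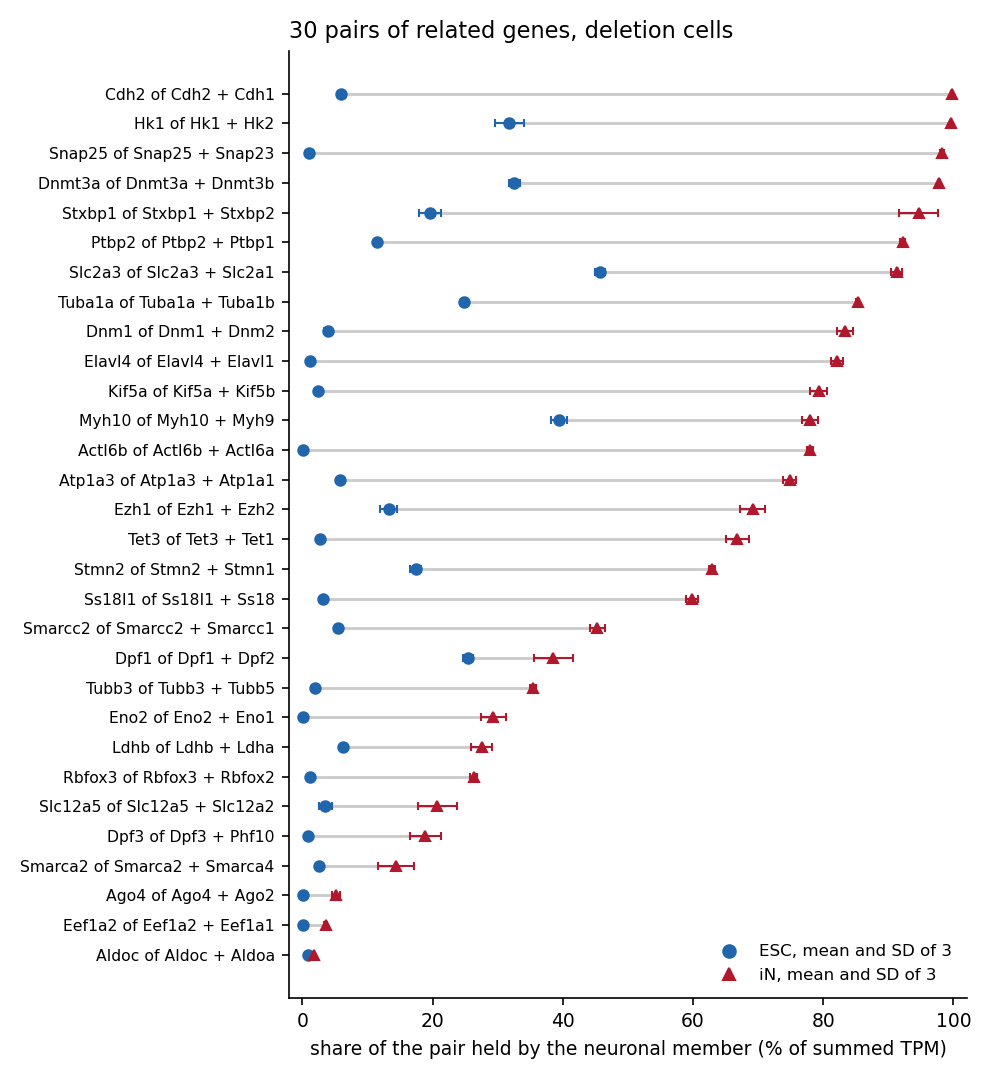
Share of summed TPM held by the neuronal or postmitotic member in 30 pairs of related genes, as the mean and SD of 3 ESC libraries (circles) and 3 iN libraries (triangles) of deletion cells. The share is higher in iNs in all 30 pairs, and it spans 1.70% for Aldoc to 99.7% for Cdh2 in iNs.

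Genes that make and carry microRNAs changed in both directions, in deletion and in control cells. Of 24 listed, 22 were tested, 8 rose and 14 fell (median -0.29). In control cells 8 of 22 rose and 12 fell (median -0.34). The difference between genotypes called 2 of 22 higher and 4 lower (median -0.02), beside 5.01% and 8.5% of all genes. Lin28a, the RNA-binding protein that blocks let-7 processing, read 499, 483 and 482 CPM in ESCs and 15.2, 13.2 and 16.2 CPM in iNs (-5.04 ± 0.071), and the let-7 target Trim71 fell by 3.68 ± 0.058. Ago4 rose by 5.01 ± 0.19 and Zswim8, the ubiquitin ligase subunit that acts in target-directed microRNA decay, by 2.35 ± 0.055. Ago2, the main Argonaute in both states by TPM, changed by -0.11 ± 0.045 (edgeR adjusted p = 0.034), and this call did not hold without any of the 3 iN libraries in turn (log2 fold changes of -0.08, -0.05 and -0.08 without A, B and C) or without ESC replicate C (-0.09).

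Within the imprinted domain around the deletion, the noncoding RNAs rose. Meg3 (chr12:109540996-109571729, GRCm38.p6) read 248, 231 and 233 CPM in ESCs and 1837, 2103 and 2062 CPM in iNs (3.08 ± 0.064), and Rian (chr12:109603945-109661716) read 340.1, 401 and 399 CPM and 1081, 1231 and 1137 CPM (1.60 ± 0.071). Every iN library was above every ESC library for both. Dio3, the thyroid hormone inactivating enzyme at the far end of the domain (chr12:110279230-110281097), rose by 4.51 ± 0.19 and Begain, at the other end, by 3.73 ± 0.18. The transcript B830012L14Rik rose by 0.96 ± 0.10 in these deletion cells but changed by -0.53 in control cells. Dlk1, a paternally expressed Notch-like ligand (chr12:109452485-109463336), read 4.53, 4.39 and 4.48 CPM in ESCs and 4.68, 3.68 and 4.5 CPM in iNs, and the groups overlapped (-0.06 ± 0.15, edgeR adjusted p = 0.723). The neighbour Wdr25 fell by 0.84 ± 0.14, and Ppp2r5c did not pass (0.01 ± 0.049). Rtl1, which has antisense microRNAs of its own, was too low to test, and strand-specific counting is not stated, so counts of overlapping transcripts in the domain are uncertain.

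Among metabolic lists, glycolysis and serine genes mostly fell and sterol synthesis genes mostly rose. Of 22 glycolysis genes, 14 fell, 7 rose and 1 did not pass (median -1.24): the glucose transporter Slc2a1 read 417, 402 and 390.5 CPM in ESCs and 7.6, 7.68 and 7.08 CPM in iNs (-5.76 ± 0.062), and hexokinase Hk2 (-7.78 ± 0.12) and the lactate exporter Slc16a3 (-4.59 ± 0.088) fell too. The neuronal isoforms Eno2 (6.42 ± 0.092) and Hk1 (2.76 ± 0.054) rose. Of 23 serine, one-carbon and cysteine synthesis genes tested, 19 fell and 4 rose (median -2.02). Tdh, the threonine dehydrogenase on which mouse ESCs depend, read 158, 149 and 145 CPM in ESCs and 0.201, 0.0526 and 0.152 CPM in iNs (-10.05 ± 0.14), and Shmt1 (-8.01 ± 0.10) and Cbs (-6.56 ± 0.18) fell too. The mitochondrial folate enzymes Aldh1l2 (4.00 ± 0.12) and Mthfd2l (2.39 ± 0.12) went the other way. Of 22 sterol synthesis genes, 20 rose, Ebp fell (-0.87 ± 0.065) and 1 did not pass (median 1.49). Dhcr7, which makes the last step to cholesterol, read 39.3, 40.9 and 40.5 CPM in ESCs and 266, 263 and 258 CPM in iNs (2.71 ± 0.048), and Tm7sf2 rose by 3.99 ± 0.071.

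Of 44 nuclear genes of the respiratory chain, 22 rose, 11 fell and 11 did not pass (median 0.18), with Cox6b1 (1.06 ± 0.093) and Cox6a1 (1.05 ± 0.073) among the largest rises. Of 13 mitochondrially encoded genes, 11 rose, led by mt-Nd5 (2.38 ± 0.13), and mt-Nd1 fell by 0.42 ± 0.15; that call was lost without ESC replicate B (-0.36), iN replicate A (-0.22) or iN replicate C (-0.40). Of 20 p53 target genes, 17 fell and 3 rose (median -1.64). Gtse1, a cell cycle regulated gene (-7.09 ± 0.11), and the pro-death genes Pmaip1 (-4.71 ± 0.12) and Tnfrsf10b (-4.08 ± 0.11) fell. The inhibitor Cdkn1a rose by 1.29 ± 0.061. Of 15 immediate early genes tested, 11 fell, such as Egr1 (-3.84 ± 0.22) and Ier2 (-3.83 ± 0.081), and 4 rose, among them the nuclear receptors Nr4a2 (2.30 ± 0.20) and Nr4a3 (2.77 ± 0.30).

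Markers of other cell types were low in the iNs, with exceptions. Of 11 neural progenitor markers tested, 7 fell and 4 rose (median -2.68, 653 to 676 CPM in sum in ESCs and 498 to 533 in iNs). Sox2 read 198, 204 and 208 CPM in ESCs and 0.201, 0.526 and 0.961 CPM in iNs, Sox1 was at 0 counts in iNs (at least 38.5-fold lower), and vimentin, Vim, rose by 0.87 ± 0.046 and is the bulk of the iN sum. Of 16 glial markers, 9 were too low to test, among them Gfap, Aqp4, Olig1, Olig2, Sox10, Mog and Mag. Of the other 7, 5 rose, 1 fell and 1 did not pass, and the list summed to 67.5 to 71.8 CPM in ESCs and 169 to 177 in iNs. The glutamate transporter Slc1a2 rose from 0.299, 0.418 and 0.948 to 87.7, 92.5 and 93.6 CPM, while the astrocyte transporter Slc1a3 fell by 8.88 ± 0.19. Fibroblast and mesenchyme markers summed to 1401 to 1451 CPM in ESCs and 110 to 123 in iNs: 11 of 16 fell, such as Tagln (-9.43 ± 0.15) and Col1a1 (-9.28 ± 0.21), and 5 rose, including Postn (5.09 ± 0.14) and Thy1, which neurons also express (3.72 ± 0.091). Endoderm and mesoderm markers summed to 42.0 to 45.2 CPM in ESCs and 11.9 to 13.2 in iNs, trophoblast and 2-cell-like markers to 371 to 391 and 8.05 to 10.3, and blood, endothelium and muscle markers to 58.9 to 62.1 and 2.53 to 3.06. In the trophoblast list the keratins Krt8 (-6.12 ± 0.11) and Krt18 (-5.10 ± 0.095) held most of the ESC sum; the part of such cells in the results was not tested.

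Long genes rose more often than short ones. Among 15370 tested genes with an annotated span (87.7%), 37.0% of the 4397 genes under 10 kb were higher in iNs and 50.9% lower, with a median of -0.40. Of the 6695 genes of 10 to 50 kb, 41.6% were higher and 48.9% lower. The balance crossed at 50 to 100 kb (47.7% higher, 44.8% lower of 2094). Of the 906 genes over 200 kb, 75.7% were higher and 18.7% lower, with a median of 2.41. Control cells had a median of 2.44 in that class and -0.34 under 10 kb. Span and log2 fold change had a Spearman correlation of 0.19 across genes, a description, since genes are not replicates.

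**Figure D4:**
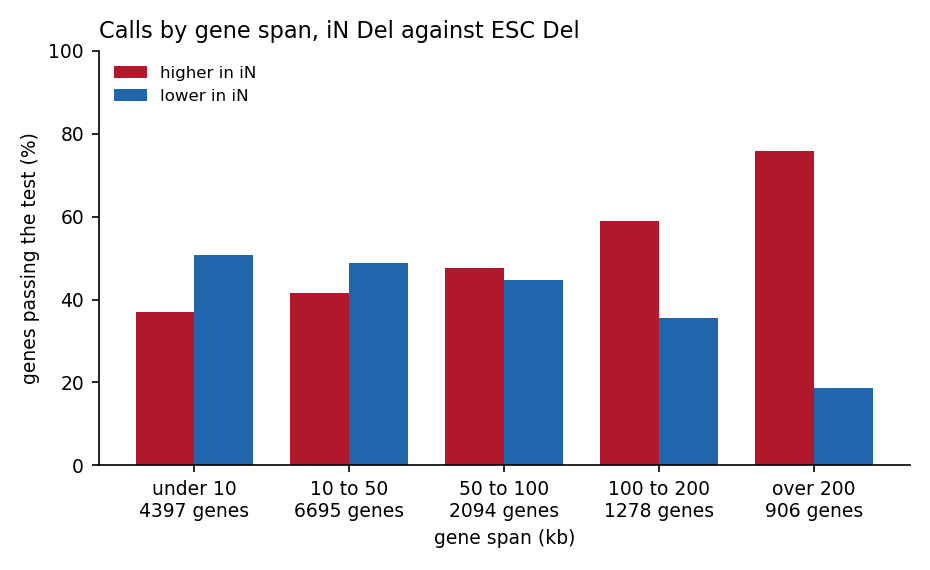
Share of tested genes (%) that were higher (red) or lower (blue) in iN Del than in ESC Del at an adjusted p under 0.05, by gene span in kb, with the number of genes under each class. The share higher rises from 37.0% under 10 kb to 75.7% over 200 kb.

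Set beside control cells, the differentiation ran nearly alike. In control libraries, 7571 of 17247 genes tested (43.9%) were higher in iNs and 7781 (45.1%) lower. Over 16959 genes tested in both genotypes, the log2 fold changes had a Pearson correlation of 0.978 and a Spearman correlation of 0.983, and the slope of deletion on control was 0.996. The comparisons share no library, and these values describe genes, not replicates. Of those genes, 14340 passed in both genotypes in the same direction, 82 in opposite directions, 797 in deletion cells alone and 702 in control cells alone. Only for Cdh23, an adhesion protein of hair cells named after its values were seen, were opposite changes of 2-fold or more fitted in both, at 1.52 ± 0.32 in deletion and -1.19 ± 0.37 in control cells.

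**Figure D5:**
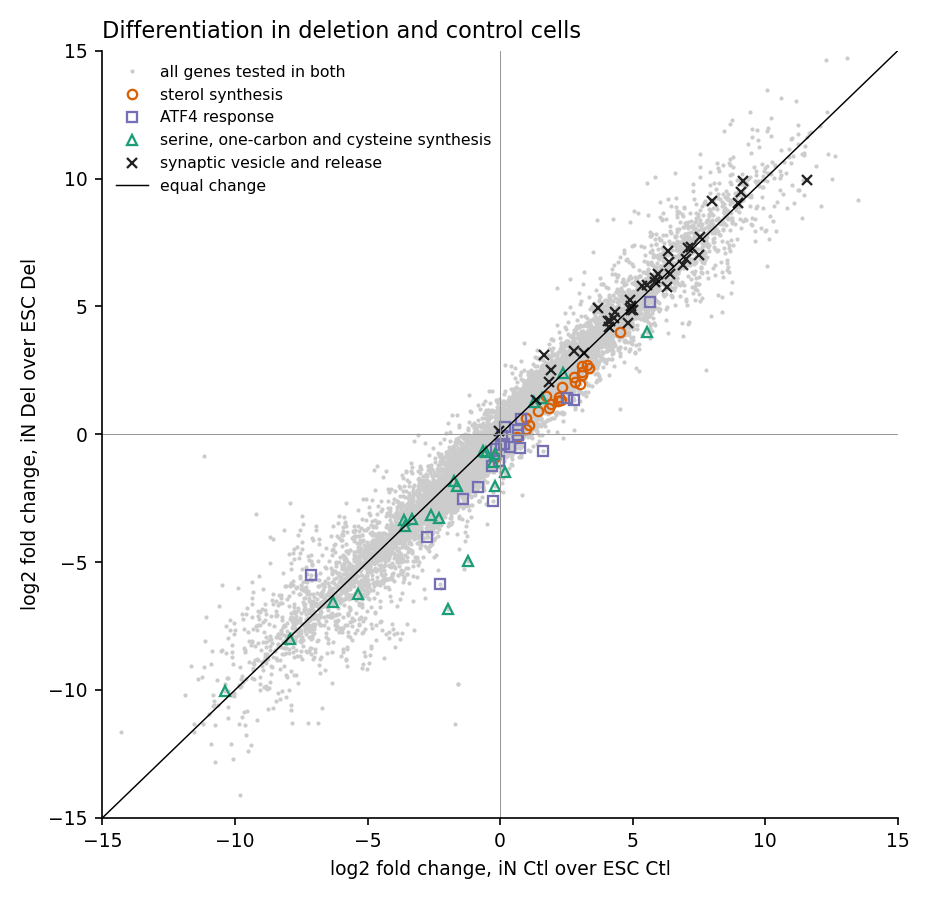
Log2 fold change of iN over ESC in deletion cells against that in control cells for genes tested in both, with 4 gene lists marked and a line of equal change. Genes lie along the line, synaptic vesicle genes at its upper end, while sterol synthesis genes (median 1.49 in deletion and 2.26 in control cells) lie below it.

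The test of the difference itself, the interaction of cell state and genotype over all 12 libraries, called 917 of 18299 genes (5.01%) with a higher and 1556 (8.5%) with a lower iN-to-ESC change in deletion cells. Beyond 2-fold it called 7 and 29. The count of lower calls rests on iN deletion replicate B more than on any other library: without it, 907 genes were lower and not 1556. Most genes of the vesicle, channel and cytoskeleton lists were not called in the difference. The share called higher in each was above the 5.01% of all genes tested. The share called lower was above the 8.5% of all genes for the cytoskeleton alone. For synaptic vesicle genes 7 of 38 were higher in the difference and 1 lower (median 0.20), for voltage-gated channels 9 and 1 of 43 (0.14), and for the neuronal cytoskeleton 5 and 8 of 31 (-0.02). With any of the 12 libraries left out, these were 4 to 8 and 1 to 2 for vesicle genes, 5 to 10 and 1 for channels, and 2 to 5 and 4 to 9 for the cytoskeleton, whose median ran from -0.051 to 0.031. For DNA replication 1 was higher and 4 lower of 35 (-0.12), and for mitosis 3 and 4 of 43 (0.02). With a library left out, 0 to 1 replication genes were higher and 3 to 6 lower, and 3 to 4 mitosis genes were higher and 1 to 4 lower.

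Sterol, ATF4 and serine genes took most of their difference in the same direction. Of 22 sterol synthesis genes, 21 were lower in the difference and none higher (median -0.73), and 19 to 22 were lower when any of the 12 libraries was left out. Dhcr7 rose by 2.71 in deletion and 3.28 in control cells, a difference of -0.57 ± 0.082 (edgeR adjusted p = 2.81e-04). Of 22 ATF4 response genes, 17 were lower (median -0.90, 16 to 18 without any library), with a median change of -0.52 in deletion and 0.12 in control cells. Of 24 serine, one-carbon and cysteine genes, 12 were lower (median -0.30, 10 to 12 without any library). Phgdh, the enzyme that commits glucose carbon to serine, read 82.7, 82.1 and 77.6 CPM in ESC and 2.37, 2.53 and 2.93 CPM in iN deletion libraries, against 76.3, 80.2 and 72.8 CPM and 38.7, 34.6 and 26.9 CPM in control libraries. The difference was -3.74 ± 0.16 (edgeR adjusted p = 4.23e-09), with the iN control libraries far above the iN deletion libraries. Slc7a3, a cationic amino acid transporter, read 3.02, 3.89 and 3.69 CPM in iN deletion and 48.1, 45.5 and 33.2 CPM in iN control libraries, and Cth, the last enzyme of cysteine synthesis, 0.403, 0.737 and 0.405 CPM and 20.9, 14.1 and 9.29 CPM.

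Some promoters of ATF4 response genes held the composite CEBP-ATF element TGATGNAA, in which N is any base. It was found on either strand in 6 of 17 such genes with a promoter (35.3%), beside 2.73% of all tested genes and 0 of 18 serine, one-carbon and cysteine genes. The promoter of Chac1 (chr2:119350992-119351291 on the plus strand), an ATF4 target that degrades glutathione, is shown with matches in capitals, chosen for holding the element. Chac1, outside the rule for named genes, changed by -0.66 ± 0.26 in deletion and 1.64 ± 0.16 in control cells. Its difference of -2.29 was the most negative of the 6 genes. The others had -1.20 (Trib3), -0.71 (Asns), -0.46 (Vldlr), -0.44 (Aars) and 1.73 (Nupr1). Whether the element bears on the difference was not tested.
Chac1: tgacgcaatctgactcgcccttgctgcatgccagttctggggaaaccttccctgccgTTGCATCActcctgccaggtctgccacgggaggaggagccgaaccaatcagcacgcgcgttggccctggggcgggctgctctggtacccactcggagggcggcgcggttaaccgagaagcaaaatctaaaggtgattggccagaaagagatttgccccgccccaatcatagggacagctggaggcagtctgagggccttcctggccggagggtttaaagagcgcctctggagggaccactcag

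Other single genes differed in either direction. Txnip, which restrains glucose uptake, read 22.9, 22.9 and 22.6 CPM in ESC and 21, 30.8 and 16 CPM in iN deletion libraries, which overlap, while control libraries went from 29.8, 28 and 29.1 CPM to 1.47, 3.35 and 5.23 CPM. Cpt1a, the gate of mitochondrial fatty acid oxidation, rose by 0.45 ± 0.079 in deletion cells and changed by -1.95 ± 0.12 in control cells. Sox2 fell less in deletion cells (-8.48 and -10.87, difference 2.4 ± 0.58, edgeR adjusted p = 0.0119), a call lost without iN control replicate B (adjusted p = 0.0604) or iN deletion replicate C (adjusted p = 0.0563). Its iN values in deletion cells were all under 1 CPM. In the imprinted domain the rise of Meg3 was larger in deletion cells (0.92 ± 0.15), as was that of Rian (0.64 ± 0.099). B830012L14Rik changed in opposite directions, by 0.96 in deletion and -0.53 in control cells (difference 1.49). Dlk1 rose by 0.90 ± 0.13 in control cells and did not pass in deletion cells (difference -0.95 ± 0.19, edgeR adjusted p = 0.00334). The rise of Neurog2 was larger by 1.35 ± 0.12 in deletion cells.

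Genes with an Ago2-bound region matched to a cluster microRNA in the authors' deposited list numbered 624, of which 619 were tested. The regions came from control iNs, as the labels of that assay give. In deletion cells 53.2% of the 619 were higher in iNs and 39.3% lower, with a median of 0.34 (0.34 in control cells). Over all genes tested 44.6% were higher and 44.9% lower, with a median of -0.01. In the difference between genotypes 52 (8.40%) were higher and 106 (17.1%) lower, with a median of -0.04, beside 5.01% and 8.5% of all genes. Matched genes are expressed well in iNs, so genes with at least 10 TPM in iNs give a closer background. Of 473 matched ones, 60.3% were higher and 31.9% lower in deletion iNs, against 56.1% and 36.3% of all 7374 such genes. In the difference 8.03% of the matched ones were higher and 17.8% lower, against 5.63% and 13.6% of all 7374.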

How the data were processed

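rRNA-depleted RNA of 12 libraries was deposited as 1 RSEM gene table per library, with expected counts, TPM and posterior mean counts, per the file headers. Named in the submitters' processing notes, without roles, are the build mm10, RSEM 1.2.30, STAR 2.4.1d, SAMtools, DESeq2 and cutadapt 1.4.2; the strand setting and annotation are not given in the sources used here. The authors' deposited list of Ago2 regions carries log2 folds and −log10 p-values, and only its region positions, gene names and microRNA names were used. A table of gene names gave a symbol to 52403 of 52636 gene entries. Expected counts were rounded and filtered with filterByExpr at its minimum of 10, then scaled by TMM. Genes were tested with the quasi-likelihood F test of edgeR 4.0.16 in R 4.3.3, and against a 2-fold change with glmTreat. The Benjamini-Hochberg method adjusted p over all genes tested, with 0.05 as the threshold. SEs are the log2 fold change over the root of F. Each pairwise test used its 6 libraries and the difference between genotypes all 12. Alternatives were DESeq2 1.42.0, other scaling, no filter, leaving out mitochondrial, 7S and ribosomal-RNA-like genes, posterior mean counts, a replicate block, all libraries in 1 fit, and leaving out each library. The test was checked on simulated counts in which few genes changed, so the check does not cover scaling where most genes change. Promoters, microRNAs and coordinates came from RefSeq tables of GRCm38.p6, in which 11546 of 17513 tested symbols had a promoter. Python 3.11.15, scipy 1.17.1 and matplotlib 3.10.9 were used.

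Genes were named by a rule: the 15 largest rises and falls that passed, did not overlap between groups and had a mean log2 CPM of 2 or more (symbols starting with Gm and a digit, ending in Rik or starting with mt- left out), up to 4 members of each of 38 lists and up to 2 against the list's median, the 30 pairs, the imprinted domain, the 10 most abundant genes by TPM in each group, and the 10 largest values of the difference in each direction. Some genes that the rule names are not reported here. The comparison and the lists were chosen with earlier results of these data known. Replicate letters recur across groups, but deviations of libraries with the same letter did not go together (Pearson r across genes of -0.129, -0.0847 and 0.0298 in deletion cells and -0.151, -0.168 and 0.0325 in control cells), so the main tests have no block.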

Additional observations from a re-analysis of the deposited data

Results flagged for a closer look

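Named here are the 10 largest differences in each direction of the iN-to-ESC change between deletion and control cells, among genes that passed, had a mean log2 CPM of 2 or more and did not overlap between genotypes (symbols starting with Gm and a digit, ending in Rik or starting with mt- left out), by the edgeR interaction test with Benjamini-Hochberg adjustment. Each value is the log2 fold change in deletion cells minus that in control cells. Lower in deletion cells were 10 genes. Cth, of cysteine synthesis, differed by -4.87 ± 0.37 (SE). Gbp2b, an interferon-induced GTPase, and Acta2 had 0 counts in all iN deletion libraries, so their fitted differences of -4.35 and -4.25 depend on the prior count and bound nothing. Phgdh differed by -3.74 ± 0.16. Slc7a3 differed by -3.60 ± 0.16. Stat4 differed by -2.84 ± 0.51. Ipcef1 differed by -2.38 ± 0.68, from rises of 3.95 in deletion and 6.34 in control cells. The lipoprotein receptor Lsr (-2.34 ± 0.24), the secreted ATF4 target Stc2 (-2.34 ± 0.22) and the hexokinase Hk2 (-2.30 ± 0.22) fell further in deletion cells.

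Higher in deletion cells were the other 10. Car4, a carbonic anhydrase, differed by 4.00 ± 0.91 and Psd4 by 3.67 ± 0.75, both near 0 CPM in iNs. Cxcl12, a chemokine, differed by 3.37 ± 0.31, from falls of -1.41 in deletion and -4.77 in control cells. Txnip differed by 3.09 ± 0.34. The water channel Aqp3 differed by 3.0 ± 0.86. E2f8 differed by 2.74 ± 0.64. The galectin Lgals9 differed by 2.57 ± 0.31. Gna14, a G protein subunit, differed by 2.52 ± 0.21, from 2.70 in deletion and 0.19 in control cells. Cpt1a differed by 2.41 ± 0.14. Sox2 differed by 2.4 ± 0.58. The calls of Acta2, Aqp3, Car4, Gbp2b, Ipcef1 and Sox2 were lost under at least 1 left-out library, those of Acta2 and Car4 under DESeq2 (adjusted p = 0.0553 and 0.0714) and without the low-count filter (0.0556 and 0.0546), and those of Acta2, Aqp3 and Ipcef1 with the replicate block (0.0614, 0.053 and 0.0527).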

How the results depend on the processing

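Of 114 recomputed counts of genes, 113 stayed within 1.5 times; the count lower in the difference was 907 in place of 1556 without iN deletion replicate B. Leaving out each library gave 7830 to 7959 genes higher and 7824 to 7944 lower in deletion cells (5403 to 5511 and 5101 to 5138 beyond 2-fold), 7542 to 7715 and 7674 to 7966 in control cells, and 647 to 860 higher and 907 to 1566 lower in the difference. DESeq2 called 7590 higher and 7609 lower in deletion cells and 826 and 1592 in the difference. With the replicate block, 7725 genes were higher and 7784 lower in deletion cells (5341 and 5027 beyond 2-fold), 7426 and 7628 in control cells, and 775 and 1345 in the difference; the labels do not say that letters pair the libraries. Testing without the low-count filter moved the median log2 value of all genes to -0.13 in deletion cells and -0.24 in control cells. The near-identical small RNA genes Gm22317 and Gm25679 (-0.65, not passed) ranged from -1.12 without ESC deletion replicate C to 0.75 without ESC deletion replicate A, and passed the test in both. With 1 library out, 5 list medians changed sign and moved by more than their SD over iN libraries. In the difference they were sensory, motor and autonomic factors (-0.0404 to 0.491), GABA and glycine receptors (-0.231 to 0.354), glia (-0.00626 to 0.267) and fibroblast markers (-0.214 to 0.0709), and in deletion cells BAF genes (-0.0822 to 0.00396). Medians nearer 0 also changed sign in the difference for Notch (-0.006 to 0.091), the neuronal cytoskeleton (-0.051 to 0.031), axon guidance (-0.031 to 0.113), microRNA processing (-0.040 to 0.020), mitochondrially encoded genes (-0.105 to 0.223) and genes with matched Ago2 regions (-0.067 to 0.003). The cause was not tested. With 3 libraries a group precision is limited, and iN levels of shut-down genes rest on few counts.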

Other observations

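Genes outside the lists included the most abundant transcripts. The ribosomal-RNA-like Gm26917 was the highest by count in ESCs and read 107586, 106527 and 106153 CPM there and 26877, 24013 and 22517 CPM in iNs (-2.13 ± 0.094). The 7SL genes Rn7s1 (1.67 ± 0.14) and Rn7s2 (1.19 ± 0.14), near-identical copies whose counts are uncertain, were higher in iNs, and Rmrp, the RNA of RNase MRP, was lower (-1.31 ± 0.074). Rn7sk, which holds back transcription elongation, read 8747, 7983 and 8304 CPM in ESCs and 7854, 9687 and 8410.3 CPM in iNs, with overlapping groups.

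Calls were spread over the chromosomes. On chromosome 18, 53.9% of 434 tested genes with a position were higher in iNs and 37.3% lower (median 0.50), and on chromosome 12, which holds the deletion, 49.6% of 575 were higher and 39.7% lower (0.25). On chromosome 3, 42.5% of 744 were higher and 49.6% lower (-0.26). Control cells had medians of 0.45, 0.29 and -0.19 on the same chromosomes.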
